A study of Mus musculus with 6 samples.

Results

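The 47 genes described here encode the subunits of the mouse proteasome and its activators, inhibitor and assembly chaperones. They were chosen by symbol alone, as every gene whose symbol is Psm, 1 letter from a to g and a number, with at least 10 counts summed over the 6 RNA-seq libraries, out of 46095 genes in the table. Of 49 such symbols, Psmb8 and Psmb11 fell under that minimum. Of the 47 members, 44 passed edgeR's filter on low counts and were tested, and Psma8, Psmb9 and Psmg1 were not.

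The libraries came from primary renal tubular epithelial cells (PTECs) of mice at 10 weeks of age, 3 of the genotype VHL-KO, numbered 1, 2 and 4, and 3 of the genotype VHL-KO;SETD2-KO, numbered 2, 3 and 4. Both groups carried Ksp Cre, a Cre recombinase driven by the promoter of the tubular cadherin gene Cdh16, and VHL fl/fl, so that VHL, the substrate receptor of a ubiquitin ligase, was to be deleted in all of them. The second group carried Setd2 fl/fl as well, which removes the enzyme that trimethylates lysine 36 of histone H3. Cells in which this promoter is silent keep both genes. The comparison asked which transcripts differ when Setd2 is deleted in VHL-deficient tubular cells, and there was no group with intact VHL.

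Total counts ranged from 11168552 to 17883466 per library. The targeted gene did not follow the labels, because Setd2 had 1179, 799 and 132 counts under VHL-KO and 1499, 1019 and 1429 counts under VHL-KO;SETD2-KO, in the order of the replicate numbers. Gene totals cannot show the loss of single exons, so every direction given here is one between libraries as labelled. One library stood apart. In VHL-KO replicate 4 the members took 0.393% of all counts, against 0.227% to 0.265% in the other 5 libraries, and the counts of members and the estimates are therefore given with and without it. Markers of the proximal tubule were at high levels in every library, with 9 of 9 detected.

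The proteasome is the large protease that degrades proteins tagged with ubiquitin. Its 20S core is a barrel of 2 outer rings of alpha subunits, which gate the entrance, and 2 inner rings of beta subunits, of which Psmb5, Psmb6 and Psmb7 carry the catalytic sites. The 19S particle caps the barrel, where a ring of Psmc ATPases unfolds the substrate and the Psmd subunits bind and remove ubiquitin. In cells exposed to interferon, Psmb8, Psmb9 and Psmb10 replace the 3 catalytic subunits and form the immunoproteasome, which cuts peptides for presentation on class I molecules. When proteasome activity falls short, the transcription factor Nfe2l1 induces the subunit genes together.

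The sequences below show the base composition of the members that differed most between VHL-KO replicate 4 and the other VHL-KO libraries. They are the central 150 coding bases of 4 members, with every G and C in capitals, taken from the transcripts of GENCODE M21 (GRCm38). Among the members with at least 100 counts in every library, Psmc6 and Psme4 were lowest in VHL-KO replicate 4 relative to the other 2 VHL-KO libraries, and Psmb10 and Psmb5 were highest.
Psmc6: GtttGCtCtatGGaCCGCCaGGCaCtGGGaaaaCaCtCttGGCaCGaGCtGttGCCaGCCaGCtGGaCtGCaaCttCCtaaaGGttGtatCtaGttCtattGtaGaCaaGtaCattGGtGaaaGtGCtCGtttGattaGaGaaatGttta
Psme4: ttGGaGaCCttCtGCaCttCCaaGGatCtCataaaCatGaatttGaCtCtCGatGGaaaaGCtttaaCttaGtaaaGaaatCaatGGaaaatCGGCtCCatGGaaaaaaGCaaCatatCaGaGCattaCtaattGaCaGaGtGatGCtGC
Psmb10: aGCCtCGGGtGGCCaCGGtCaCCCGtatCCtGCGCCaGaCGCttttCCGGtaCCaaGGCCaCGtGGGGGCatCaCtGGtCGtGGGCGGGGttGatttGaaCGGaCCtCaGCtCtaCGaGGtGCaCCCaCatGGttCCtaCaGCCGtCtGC
Psmb5: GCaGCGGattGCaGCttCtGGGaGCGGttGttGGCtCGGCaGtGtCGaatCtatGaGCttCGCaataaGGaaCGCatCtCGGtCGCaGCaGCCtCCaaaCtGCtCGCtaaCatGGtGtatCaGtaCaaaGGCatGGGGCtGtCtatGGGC
G and C made up 41.8% of the whole coding sequence of Psmc6 and 42.6% of that of Psme4. They made up 59.8% of that of Psmb10 and 57.8% of that of Psmb5.

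Psmc6, an ATPase of the 19S base, had 98.3 and 90.9 CPM (counts scaled to a common library size with TMM factors) in VHL-KO replicates 1 and 2 and 10.1 CPM in replicate 4. Psmb5, the subunit with chymotrypsin-like activity, had 28.3, 26.5 and 179 CPM in the same order. The one gene was 9.37-fold lower and the other 6.52-fold higher in replicate 4 than in the mean of the other 2 libraries of its own group. Over the 44 tested members, the log2 ratio of replicate 4 to that mean ran from -3.23 for Psmc6 to 2.80 for Psmb6. All 20 members with a transcript GC content of at least 50% were higher in replicate 4, by a median of 3.52-fold, and 17 of the 24 members under 50% were lower. Across the 44 members this ratio followed transcript GC content with a Spearman rho of 0.88 and transcript length with a rho of -0.50. Across the 12996 tested genes with a known transcript and counts in these libraries, the values were 0.76 and -0.39. These are correlations across genes of the same 3 libraries, which share composition and depth and are no replicates, and they are given as a description. The cause was not tested. Psmb1 and Psma2 departed from the trend, with log2 ratios of 1.23 at 44.6% GC and -0.05 at 39.4% GC.

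**Figure D1:**
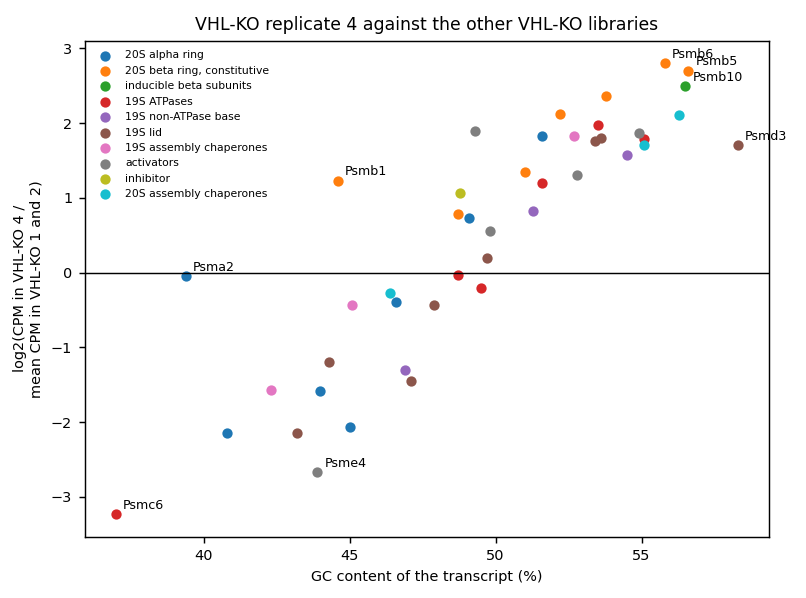
Each point is 1 of the 44 tested members, with the GC content of its longest coding transcript in percent on the x axis and the log2 ratio of its CPM in VHL-KO replicate 4 to its mean CPM in VHL-KO replicates 1 and 2 on the y axis, coloured by role. The points run from Psmc6 at -3.23 and 37.0% GC to Psmb6 at 2.80 and 55.8% GC.

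The other libraries of each group lay close together. Between VHL-KO replicates 1 and 2, the median absolute log2 ratio over the 44 members was 0.151, and 1 member differed by more than 2-fold. Between pairs of VHL-KO;SETD2-KO libraries, the median lay between 0.0998 and 0.17. Replicate 4 differed from VHL-KO replicate 1 by a median of 1.62, with 31 members over 2-fold, and from replicate 2 by a median of 1.59, with 32 over 2-fold.

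**Figure D2:**
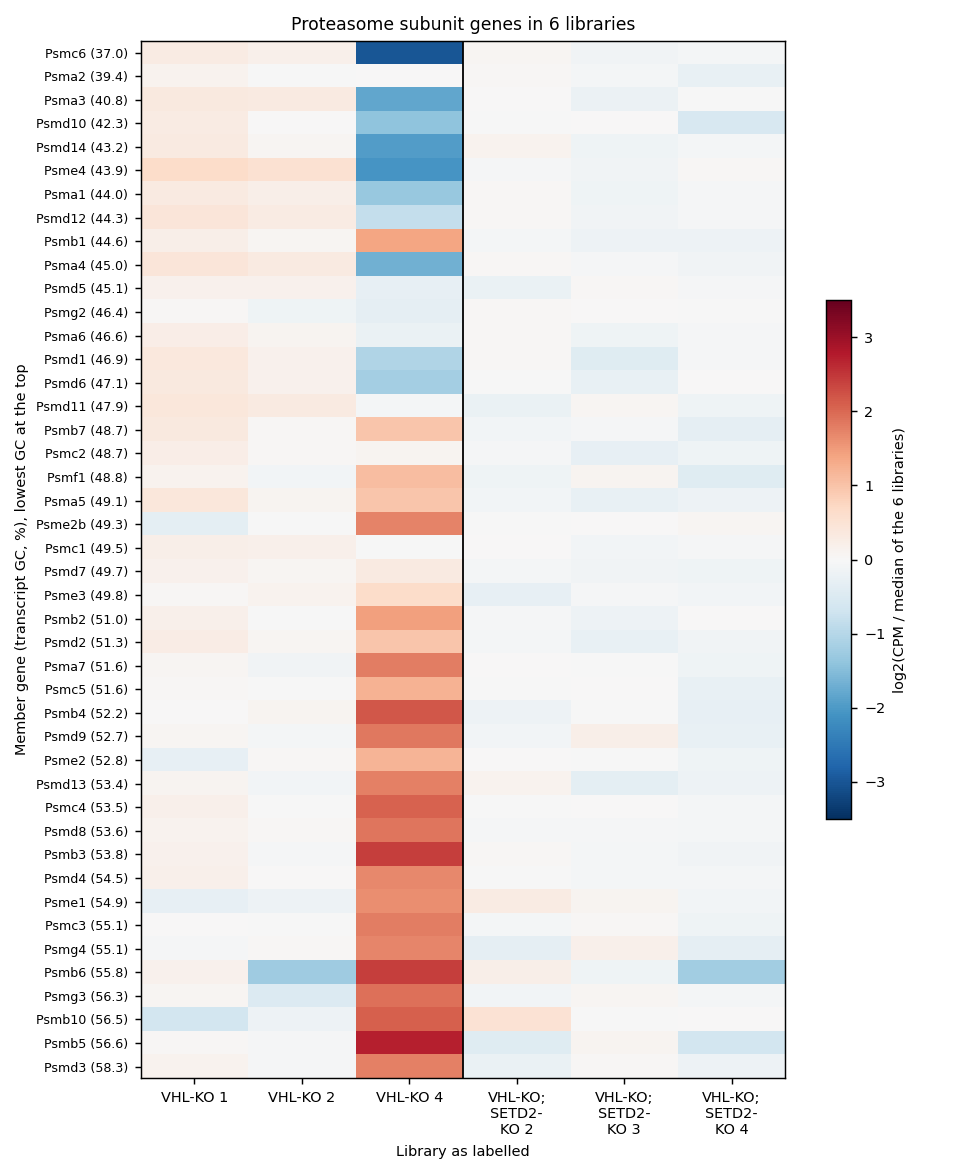
Rows are the 44 tested members in order of transcript GC content, columns are the 6 libraries, and colour gives the log2 ratio of CPM to the median of the 6 libraries. The column of VHL-KO replicate 4 runs from values below 0 at the top, where GC content is low, to values above 0 at the bottom, with Psma2 and Psmb1 as exceptions near the top. The other 5 columns are paler, and the darkest cells in them are those of Psmb6, which had few counts.

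With all 6 libraries, 1 of the 44 tested members, Psmb5, was called lower under VHL-KO;SETD2-KO and 0 were called higher. A call took a fold of 1.5 or more and an unadjusted p under 0.05 in edgeR's quasi-likelihood test. Over all 14611 genes tested, 4.68% were called lower and 2.65% higher, so that the share of members, 2.27%, was no higher than in the table as a whole. At an adjusted p under 0.05, 0 members were called by edgeR, by limma-voom or by DESeq2, which gave no adjusted p for 38 of them, and the lowest adjusted p of edgeR was 0.625. At an unadjusted p under 0.05 alone, these tools gave 1, 0 and 3 members. Of all genes, edgeR called 0.00684% at an adjusted p under 0.05 and had 7.33% at an unadjusted p under 0.05. The median log2 fold change of the members was -0.61, a ratio of 0.653, against 0.00933 over all genes. Of the members, 36 of 44 had estimates below 0, against 49.5% of all genes. The members' median was -0.22 without VHL-KO replicate 4. Fewer cells of a type and less RNA per cell cannot be told apart in such bulk libraries.

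Psmb5 (chromosome 14, 54614119 to 54618022, minus strand, GRCm38) had 28.3, 26.5 and 179 CPM under VHL-KO and 20.4, 29.2 and 17.5 CPM under VHL-KO;SETD2-KO. The groups overlapped, and the call rested on the single library at 179 CPM. Its log2 fold change was -1.80 ± 0.779 (SE, n = 3 per group, adjusted p = 0.625 by edgeR), and without that library it was -0.30 ± 0.238 (adjusted p = 0.519). The other members with the lowest estimates were Psmb6, Psmb3 and Psmb4 of the same beta ring, at -1.44, -1.35 and -1.29, and none of them passed the test. Psmb3, which has a structural place in the ring, had 55.6, 48.6 and 268 CPM against 51.5, 48.1 and 46.3 CPM. The highest estimates were those of Psmc6, Psmd14, Psmg2 and Psma1, at 0.24, 0.20, 0.15 and 0.05, also short of the test. Psmd14, the deubiquitinase of the lid, had 51.5, 43.9 and 10.8 CPM against 45.2, 37.4 and 39.5 CPM. For Psmb5, Psmb3 and Psmd14, the library that lay apart from the other 5 was VHL-KO replicate 4. Psmg2, a chaperone of the core, had 9.07 CPM in that library, close to the other 2 of its group, and its estimate without it was 0.06.

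The 2 groups did not overlap for 10 members, all lower under VHL-KO;SETD2-KO (Psma5, Psmb1, Psmb4, Psmb7, Psmc2, Psmd2, Psmd4, Psmd7, Psmd8 and Psme3), which is 22.7% of those tested. Over all genes tested, 11.0% did not overlap with lower values and 9.62% with higher ones. With 3 libraries against 3, an exact permutation test of a single gene cannot go below a two-sided p of 0.10.

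A correction for base composition changed the count with all 6 libraries. Each library's trend over transcript GC content was entered as an offset in edgeR, an alternative added after the data had been seen. Psmb5, Psmb1, Psma5, Psmd11 and Psmd12 were then called lower, and 43 of 44 estimates lay below 0, with a median of -0.52. The share of members called lower was 11.4%, against 8.44% of the 13090 genes in that fit, and the lowest adjusted p among members was 0.296. The SD over members of the log2 ratio of replicate 4 to the other VHL-KO libraries went from 1.61 to 0.75, and rho with GC content to 0.25. The median of that ratio went only from 0.942 to 0.8, so that replicate 4 still stood above the other VHL-KO libraries. With the offset and without replicate 4, the median estimate of the members was -0.2. Psmb1, which lay off the GC trend, had an estimate of -0.82 before the offset and the lowest of all members after it, so that its call rests on the offset.

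Without VHL-KO replicate 4, 37 of 44 members had estimates below 0, against 46.9% of all genes, with values between -0.63 and 0.59 on the log2 scale. These estimates still followed base composition, with a Spearman rho of 0.64 with transcript GC content and of -0.46 with transcript length. Over all tested genes with a known transcript, the values were 0.13 and 0.04. The cause was not tested. The members' median of -0.22 is a ratio of 0.861, against a median of 0.0355 over the 15000 genes tested. Psme4 was called lower, and 0 members were called higher, where 7.14% and 8.29% of all genes were called. With no limit on the fold, 7 members, or 15.9%, had an unadjusted p under 0.05 and a lower level, against 10.6% of all genes, and the other 6 were Psma1, Psma3, Psma4, Psma5, Psmd11 and Psmd12. Values did not overlap for 23 members that were lower (52.3%, against 21.2% of all genes) and 2 that were higher (4.55%, against 20.5%). At an adjusted p under 0.05, edgeR called 0 members, with 0.00667% of all genes called, and limma-voom called 0, with 6 members at an unadjusted p under 0.05. DESeq2 called 1 member, Psme4, and 9.57% of the genes for which it gave an adjusted p.

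**Figure D3:**
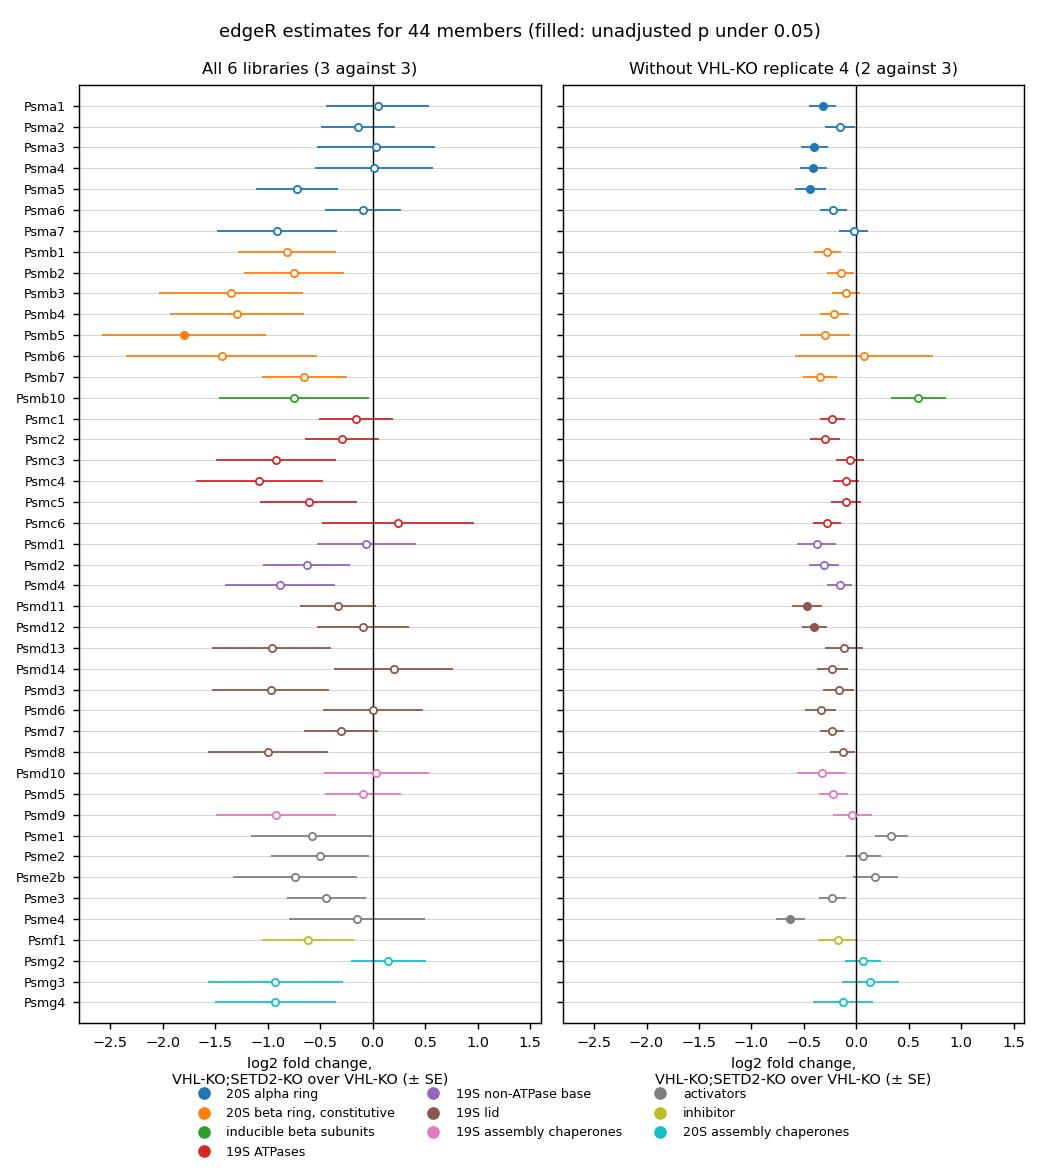
Points are edgeR log2 fold changes of the 44 tested members, VHL-KO;SETD2-KO over VHL-KO, with bars of 1 SE, coloured by role, and filled where the unadjusted p was under 0.05. In the left panel, with all 6 libraries, only Psmb5 is filled and the bars are long. In the right panel, without VHL-KO replicate 4, 7 points are filled, all of them left of 0, and Psmb10 lies farthest to the right at 0.59.

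Markers of the proximal tubule moved between the groups in the same 5 libraries. Over all genes, 7.14% were called lower and 8.29% higher in these libraries, and 4.68% and 2.65% in all 6. Of the 9 proximal tubule markers, 6 were called lower without VHL-KO replicate 4, and their summed level was 12700 to 13400 CPM in VHL-KO replicates 1 and 2 and 5750 to 8450 CPM under VHL-KO;SETD2-KO. VHL-KO replicate 4 stood at 25900 CPM, and with it 4 of the 9 were called lower. The 4 endothelial markers summed to 1300 to 1500 CPM in VHL-KO replicates 1 and 2 and to 1090 to 3680 CPM under VHL-KO;SETD2-KO, with 0 called in either fit. Of 5 markers of the thick limb and distal tubule, 1 was called higher in each fit, Calb1 with all 6 libraries and Slc12a3 without replicate 4. Of 4 markers of the collecting duct, 1, Atp6v1g3, was called higher in both fits. Without replicate 4 the sums were 1710 to 2380 against 1800 to 4740 CPM for the former and 46.0 to 55.3 against 52.6 to 143 CPM for the latter. Of 5 fibroblast and myofibroblast markers, 2 were called higher without replicate 4 and 0 with it, and their sums were 70.1 to 82.1 against 76.8 to 191 CPM. Of 9 tested leukocyte markers, 1 was called lower without replicate 4 and 0 with it, and their sums were 152 to 392 against 137 to 338 CPM. Replicate 4 held the highest sum of the VHL-KO libraries for these last 4 lists, at 7010, 401, 408 and 673 CPM, and the lowest for the endothelium, at 777 CPM. The part of these cells in the members' values was not tested. The replacement of proximal tubule RNA by other RNA cannot be told apart from lower levels within tubular cells.

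In the 20S alpha ring, the 7 tested members were all below 0 without VHL-KO replicate 4, against 46.9% of all genes. The median of the ring was -0.32, and 5 of 7 did not overlap between groups, where 21.2% of all genes did not overlap with lower values. With all 6 libraries 4 of 7 were below 0, with a median of -0.09, and 1 did not overlap, where the share of all genes was 11.0%. Psma4, the most counted of them, had 129 and 120 CPM in VHL-KO replicates 1 and 2 and 99.6, 93.5 and 89.2 CPM under VHL-KO;SETD2-KO. Its raw counts were 2133 and 1302 in those 2 VHL-KO libraries and 321 in VHL-KO replicate 4. Every VHL-KO;SETD2-KO library lay below the 2 VHL-KO libraries, and replicate 4 lay below all of them. The log2 difference was -0.41 ± 0.132 (adjusted p = 0.18 by edgeR), and it was 0.01 with all 6 libraries. Psma5 had 35.5 and 29.1 CPM, and 53.5 CPM in replicate 4, against 25.3, 22.6 and 23.8 CPM. Its log2 difference was -0.72 ± 0.389 with replicate 4 (adjusted p = 0.625) and -0.44 ± 0.149 without it (adjusted p = 0.192), and the groups did not overlap either way. Psma3 and Psma1 had differences of -0.40 and -0.32 without replicate 4 and of 0.04 and 0.05 with it. Psma7 showed a difference of -0.03 without replicate 4, with 69.2 and 60.2 CPM against 66.4, 65.6 and 59.0 CPM. With all 6 libraries, of which replicate 4 had 229 CPM, it was -0.91 (adjusted p = 0.633). Psma8, a form of the alpha ring known from the testis, had 1 to 12 counts in each library.

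In the constitutive beta ring, the 7 members had a median of -0.21 without VHL-KO replicate 4 and 0 passed the call rule, against a median of -1.29 and the call of Psmb5 with it. Psmb4, the most counted, had 84.6 and 88.4 CPM against 73.4, 82.4 and 68.6 CPM, and 377 CPM in replicate 4. Psmb7, with trypsin-like activity, had 97.4 and 78.9 CPM against 72.0, 74.8 and 61.7 CPM, a difference of -0.35 ± 0.16 (adjusted p = 0.285 by edgeR), and -0.65 (adjusted p = 0.632) with replicate 4, which had 151 CPM. Replicate 4 was above the other 2 VHL-KO libraries for all 7 beta ring genes, by log2 ratios of 0.78 to 2.80. Psmb6, with caspase-like activity and a place in every standard core particle, had only 16, 4 and 50 counts under VHL-KO and 19, 14 and 6 counts under VHL-KO;SETD2-KO. Its level per kb of exon was 0.47 CPM, the median of the 6 libraries, against 22.5 CPM per kb as the median of the 7 genes of this ring. The counting of this gene is therefore uncertain, and no change is read from it.

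The promoter of Psmb5 is shown because the regulator Nfe2l1 binds antioxidant response elements at subunit genes, and the core of that element was searched as TGACNNNGC on both strands. The stretch below is chr14:54618023-54618245, minus strand, GRCm38.p6, from RefSeq, with the match in capitals. These 223 bases hold no GENCODE exon and begin 250 bases before the start that RefSeq gives the gene, at base 54617995, which lies inside the GENCODE gene.
Psmb5 promoter: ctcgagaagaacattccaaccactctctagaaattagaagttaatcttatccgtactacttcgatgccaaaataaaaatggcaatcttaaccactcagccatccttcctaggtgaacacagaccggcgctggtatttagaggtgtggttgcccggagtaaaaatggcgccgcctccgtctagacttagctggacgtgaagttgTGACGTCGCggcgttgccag
The match began 47 bases before the RefSeq start. Among the 39 members with a promoter in the RefSeq table, 6 held this core within 250 bases before to 50 after the start (15.4%), against 14.0% of 27025 genes. These were Psmb5, Psmb6, Psmc6, Psmd9, Psmd12 and Psme4. The CCAAT box was in 13 members (33.3%), against 41.1% of genes, and the interferon-stimulated response element, written as GAAA repeated after any 2 bases, in 5 members (12.8%), against 3.99%. Those 5 were Psmb3, Psmd4, Psmd9, Psme1 and Psmg4. A match is a description of letters and not a bound site.

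The inducible subunits differed among themselves. Psmb10 (chromosome 8, 105935735 to 105938444, minus strand), the inducible counterpart of Psmb7, had 8.18 and 11.4 CPM in VHL-KO replicates 1 and 2 and 18.4, 12.8 and 12.9 CPM in the VHL-KO;SETD2-KO libraries. All 3 of the latter lay above those 2, with a log2 difference of 0.59 ± 0.26 that did not pass the test (adjusted p = 0.268 by edgeR). VHL-KO replicate 4 was highest at 55.1 CPM, and with it the estimate was -0.75 (adjusted p = 0.734). Within libraries, the log2 ratio of Psmb10 to Psmb7 counts, with 0.5 added to each, was -3.57, -2.79 and -1.46 under VHL-KO and -1.96, -2.54 and -2.25 under VHL-KO;SETD2-KO. The means differed by 0.35, less than the SD of 1.07 among the VHL-KO libraries. Without replicate 4 the ratio was 1.90-fold higher under VHL-KO;SETD2-KO, and the libraries did not overlap.

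Psmb9 (chromosome 17, 34181987 to 34187764, minus strand), the inducible counterpart of Psmb6, had 6, 12 and 23 counts under VHL-KO and 0, 0 and 0 counts under VHL-KO;SETD2-KO. All 41 of its counts lay in the libraries labelled VHL-KO. Taking 3 counts per library as the floor, which is 0.172 TMM-scaled CPM as the mean of the VHL-KO;SETD2-KO libraries, its mean of 1.21 ± 0.898 CPM (SD, n = 3) under VHL-KO was at least 7.03-fold higher, and at least 4.29-fold without replicate 4. The floor covers counting error only. Psmb9 was under the filter on low counts. In a fit without the filter its unadjusted p was 0.000133 and its adjusted p 0.554 by edgeR over 25375 genes. Among the 1464 genes with 30 to 60 counts in all, 4 were at 0 in the same 3 libraries, or 0.273%. Psmb9, with 41 counts, lies in that range itself, so this share is given as a description. Psmb9 overlaps Tap1 on the opposite strand, and Tap1 had 1, 2 and 7 counts against 3, 9 and 5. How reads on overlapping genes were counted is not given in the sources used here. Psmb8, the inducible counterpart of Psmb5, had 0, 0 and 4 counts under VHL-KO and 1, 2 and 0 under VHL-KO;SETD2-KO, at or near the floor, so that its ratio to Psmb5 could not be read. The ratio of Psmb9 to Psmb6 rests on 4 to 50 counts of Psmb6 and is not read either. Psmb9 and Psmb10 thus lay on opposite sides in the 5 libraries without VHL-KO replicate 4. For Psmb9 this rests on the 6 and 12 counts of VHL-KO replicates 1 and 2, and its counting is uncertain.

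**Figure D4:**
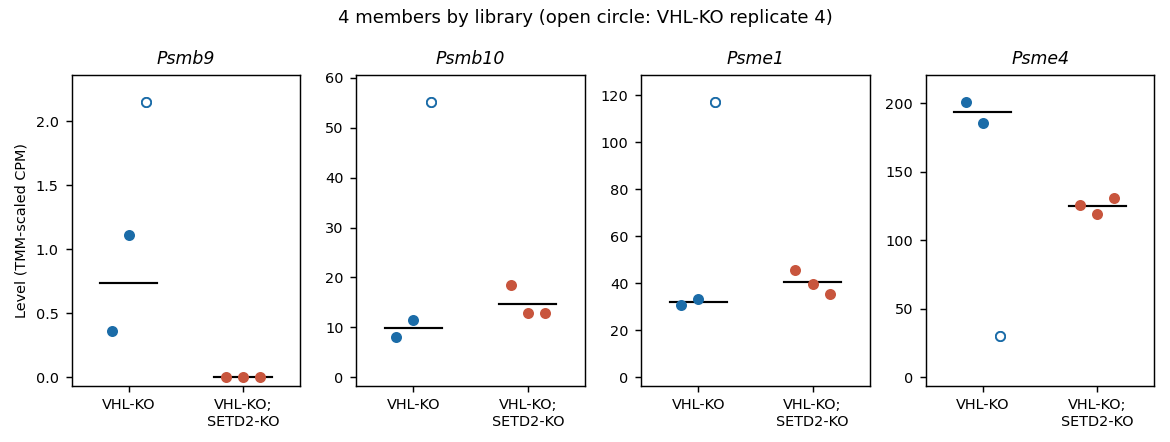
TMM-scaled CPM of Psmb9, Psmb10, Psme1 and Psme4 in each library, with VHL-KO replicate 4 as an open circle and a black line at the mean of the filled circles. Psmb9 is at 0 in all 3 VHL-KO;SETD2-KO libraries, and for Psme4 these lie between 119 and 131 CPM, below the 201 and 186 CPM of VHL-KO replicates 1 and 2.

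Among the activators, which open the gate of the core, Psme4 and Psme1 lay on opposite sides without VHL-KO replicate 4, and Psme4 alone passed the call rule. Psme4 (chromosome 11, 30771726 to 30880361, plus strand) encodes PA200, a large nuclear activator that acts without ubiquitin and is linked to the degradation of acetylated histones. It had 201 and 186 CPM in VHL-KO replicates 1 and 2, 30.5 CPM in VHL-KO replicate 4, and 126, 119 and 131 CPM in the VHL-KO;SETD2-KO libraries. The VHL-KO;SETD2-KO libraries lay close together, below replicates 1 and 2 and above replicate 4. Without replicate 4 its log2 fold change was -0.63 ± 0.138, a ratio of 0.645 (adjusted p = 0.105 by edgeR, adjusted p = 0.000782 by DESeq2). With all 6 libraries it was -0.15 ± 0.649 (adjusted p = 0.936). With the GC offset and without replicate 4 it was -0.60 (adjusted p = 0.0944).

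Psme1 (chromosome 14, 55578123 to 55581529, plus strand) encodes PA28 alpha, a subunit of the interferon-inducible activator. It had 30.6 and 33.5 CPM in VHL-KO replicates 1 and 2 and 45.7, 39.9 and 35.4 CPM under VHL-KO;SETD2-KO, with 117 CPM in VHL-KO replicate 4. Without replicate 4 the 2 groups did not overlap, and the difference of 0.33 ± 0.157 did not pass the test (adjusted p = 0.298 by edgeR). Its partner Psme2, PA28 beta, had 15.4 and 19.3 CPM against 19.1, 18.5 and 16.9 CPM, which overlapped. Psme2b is a near-identical copy of Psme2, so the counts of both are uncertain, and its values were 5.76 and 7.31 CPM against 7.23, 7.38 and 7.65 CPM. Psme3, the nuclear PA28 gamma, had 67.4 and 70.8 CPM against 53.6, 62.7 and 60.7 CPM, a difference of -0.23 ± 0.131 (adjusted p = 0.365). The estimates of Psme1, Psme2, Psme2b and Psme3 with all 6 libraries were -0.58, -0.50, -0.74 and -0.44, so that the direction of Psme1 turned. The log2 ratio of Psme1 to Psme3 counts was -1.14 and -1.08 in VHL-KO replicates 1 and 2, 0.21 in replicate 4, and -0.23, -0.65 and -0.78 in the VHL-KO;SETD2-KO libraries. Psmf1, the inhibitor PI31, had 25.2 and 21.8 CPM against 20.7, 24.6 and 17.4 CPM, with 49.3 CPM in replicate 4, and a difference of -0.18 (adjusted p = 0.638) without it and -0.62 with it.

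In the 19S particle, 17 of 17 subunits of the finished particle were below 0 without VHL-KO replicate 4, and 14 of 17 with it. Over all genes tested the shares were 46.9% and 49.5%. The subunits were read in the same libraries and are no replicates. Without replicate 4, the 6 ATPases ran from -0.30 to -0.06, the 3 non-ATPase base subunits from -0.38 to -0.16 and the 8 lid subunits from -0.47 to -0.12. Psmd11 and Psmd12, scaffolds of the lid, were those with an unadjusted p under 0.05. Psmd11 had 63.0 and 59.4 CPM, and 45.1 CPM in replicate 4, against 40.6, 50.1 and 42.5 CPM (-0.47 ± 0.142, adjusted p = 0.166 by edgeR, and -0.33 with all 6 libraries). Psmd12 had 65.2 and 59.8 CPM, and 27.3 CPM in replicate 4, against 49.9, 45.1 and 47.9 CPM (-0.40 ± 0.123, adjusted p = 0.173, and -0.09 with all 6). For both, the VHL-KO;SETD2-KO libraries lay below VHL-KO replicates 1 and 2, and neither gene reached an adjusted p under 0.05. Psmd2, which binds shuttle factors and was the most counted base subunit, had 154 and 135 CPM, and 255 CPM in replicate 4, against 124, 109 and 118 CPM, so that the groups did not overlap with or without replicate 4 (-0.63 and -0.31). Psmd3, the most counted lid subunit, had 119 and 105 CPM against 93.0, 112 and 95.5 CPM, and 365 CPM in replicate 4. Psmc3, the most counted ATPase, had 96.7 and 95.1 CPM against 90.8, 99.5 and 86.4 CPM, which overlapped, with 332 CPM in replicate 4.

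The balance of transcripts for the 2 particles differed little between the groups, and VHL-KO replicate 4 was the lowest library. The log2 ratio of summed counts, 17 subunits of the 19S particle over 14 of the 20S core, was 0.65, 0.65 and 0.44 under VHL-KO and 0.66, 0.63 and 0.72 under VHL-KO;SETD2-KO. The means differed by 0.09, less than the SD of 0.117 among the VHL-KO libraries, and by 0.02 without replicate 4. The summed level of all 47 members was 2810, 2590 and 4740 CPM under VHL-KO and 2350, 2260 and 2210 CPM under VHL-KO;SETD2-KO. The latter 3 lay below the first 3. The means differed by -1110 CPM, and by -423 CPM without VHL-KO replicate 4. As shares of raw counts the groups overlapped, at 0.259%, 0.25% and 0.393% under VHL-KO and 0.265%, 0.261% and 0.227% under VHL-KO;SETD2-KO. The separation in CPM thus rests on the scaling, with TMM factors of 0.831 to 0.969 under VHL-KO and 1.03 to 1.16 under VHL-KO;SETD2-KO.

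None of the 6 tested assembly chaperones passed the test. Of those of the 19S base, Psmd5 had 43.5 and 43.9 CPM against 33.5, 40.9 and 38.1 CPM, and Psmd10 (gankyrin) had 18.7 and 15.7 CPM against 15.2, 15.7 and 10.4 CPM. Their estimates with all 6 libraries were -0.09 and 0.04. Psmd9 had a difference of -0.04 without replicate 4 and -0.92 with it, and shares its locus with Hpd on the opposite strand. Of those of the 20S core, Psmg2 had 11.6 and 10.2 CPM against 11.7, 11.5 and 11.1 CPM, and Psmg3 and Psmg4 had differences of 0.13 and -0.13 without replicate 4. Both were at -0.93 with all 6 libraries, so that the direction of Psmg3 turned. Psmg1, the partner of Psmg2, had only 0 to 5 counts in each library.

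Levels were compared between members per kb of exon, where the length is that of all annotated exons of a gene, merged over its transcripts. This length can far exceed that of the longest coding transcript. It was 3071 against 914 bases for Psma7, but 1234 against 1042 bases for Psma6. The order of members and groups given here therefore holds for merged exons, and may differ with transcript length. The highest medians over the 6 libraries were 49.9 CPM per kb for Psma6, 43.9 for Psmc5, 42.8 for Psmb4 and 40.8 for Psma4. The lowest among the tested members were 0.47 for Psmb6, 1.86 for Psmg3, 2.64 for Psmd9 and 3.61 for Psmf1. The median ATPase stood at 31.8 CPM per kb, the median alpha subunit at 21.5, the median lid subunit at 19.5 and the median 20S chaperone at 6.52. The ATPases ranged from 13.8 to 43.9 and the lid subunits from 7.46 to 25.6, so that these groups overlapped.

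Other genes of the ubiquitin and proteasome system were read from 4 lists. Of 15 further subunits, receptors and cofactors, 0 were called with all 6 libraries and 0 without VHL-KO replicate 4. In the latter fit 11 of 15 lay below 0, against 46.9% of all genes. The lowest estimate in that list was that of the ubiquitin receptor Adrm1, at -0.42 ± 0.14 (adjusted p = 0.186 by edgeR), under the 1.5-fold limit, and it was at -1.13 with all 6 libraries without a call. Of 14 genes of ubiquitin, its activating enzymes, the Vcp unfoldase and the VHL ligase, 1 was called lower in both fits. Of all genes, 4.68% were called lower with all 6 libraries and 7.14% without replicate 4. The gene of the list was Nploc4, a cofactor of Vcp, with 72.5, 74 and 140 CPM under VHL-KO and 45.9, 45.1 and 53.5 CPM under VHL-KO;SETD2-KO. Its raw counts were 1196, 800 and 1497 against 864, 800 and 853. Its log2 fold change was -0.99 (adjusted p = 0.625) with all 6 libraries and -0.61 ± 0.133 (adjusted p = 0.105) without replicate 4. Vhl itself had a difference of -0.26 (adjusted p = 0.833) with all 6 libraries and of 0.12 (adjusted p = 0.786) without replicate 4.

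Of 10 transcriptional regulators, 0 were called with all 6 libraries, and 1, Nfe2l1, was called higher without VHL-KO replicate 4. In that fit 8.29% of all genes tested were called higher, a share that also stands beside the class I genes below. Nfe2l1 had 132, 167 and 273 CPM under VHL-KO and 256, 269 and 237 CPM under VHL-KO;SETD2-KO. VHL-KO replicate 4 was thus the highest of all libraries, and the groups overlapped. The raw counts of Nfe2l1 were 2175, 1810 and 2920 against 4815, 4774 and 3786. Its log2 fold change was 0.76 ± 0.177 (adjusted p = 0.112 by edgeR) without replicate 4 and 0.41 (adjusted p = 0.756) with all 6. The 44 members had a median of -0.22 in the same 5 libraries. The protease Ddi2 and the glycanase Ngly1, which activate Nfe2l1, had differences of -0.56 and -0.27 without replicate 4 and of -0.27 and 0.24 with it, none of them past the test. Of 13 genes of class I antigen presentation and its inducers, 10 were tested, 0 were called with all 6 libraries, and 1, H2-K1, was called higher without replicate 4 (1.06 ± 0.395, adjusted p = 0.22). H2-K1 had 34, 29 and 181 counts against 60, 96 and 99 counts, H2-D1 was at 0 in every library, and reads of these near-identical class I genes cannot be assigned with certainty. The light chain B2m had a difference of 0.37 and the interferon receptor Ifngr1 one of 0.50 ± 0.151 (adjusted p = 0.165), both without replicate 4 and without a call. They were at -0.11 and 0.73 with all 6 libraries.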

How the data were processed

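RNA-seq counts of PTECs from 6 mice were used, 3 libraries per label. The authors prepared directional, paired-end Illumina libraries and deposited raw counts per gene symbol, without normalization. The submitters' processing notes name HISAT2 2.0.4 and GRCm38. The counter, the annotation and the use of strand are not given in the sources used here. The study called genes with DESeq2. All 6 count columns were used, and 0 were left out.

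From the deposited counts, TMM-scaled CPM and edgeR's quasi-likelihood test (edgeR 4.0.16, R 4.3.3) were computed on the 14611 genes that passed filterByExpr, in a model of the label alone. Adjustment by Benjamini-Hochberg ran over all of these genes. A call took an unadjusted p under 0.05 and a fold of at least 1.5, the study's limits. The code of the fits was run on simulated counts with the same spread for every gene and, in some runs, a straight GC trend. Such counts are simpler than these data, where members departed from the trend, so those runs do not bear on the estimates given here. Alternatives were DESeq2 1.42.0, limma-voom (limma 3.58.1), other scalings, no filter, a replicate block and leaving out each library. Fits without VHL-KO replicate 4 under other tools, and the GC offset, were chosen once the data had been seen. Transcript GC content, positions and exon lengths came from GENCODE M21, and an exon length is that of all exons of a gene, merged. A floor of 3 counts equals 0.159 to 0.28 TMM-scaled CPM per library. It covers counting error only, because PCR copies of a molecule were counted without identifiers. Nothing in the labels beyond the series text, which names 3 mice per genotype, describes how the libraries were drawn, and p-values measure the spread between these libraries.

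The members, role groups and lists were chosen with earlier results of these data known. Named genes are members with an edgeR p under 0.05, the 4 highest and 4 lowest estimates, the inducible subunits and those they replace, the most counted member of each role, list genes past both limits, and Setd2 and Vhl. Members and list genes named for their values without VHL-KO replicate 4, those named for a wide or narrow difference, and Psme1 were chosen after their values were seen. 1 list of cell type markers, fixed with the others, is not reported here.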

Additional observations from a re-analysis of the deposited data

How the results depend on the processing

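Without VHL-KO replicate 4 the members' median log2 fold change moved from -0.615 to -0.216, and over all libraries left out in turn it ran from -0.808 to -0.216. In fits added after the data had been seen, also without that library, it was -0.221 with DESeq2 and with RLE factors, -0.218 with limma-voom, -0.225 with library sizes that left out the top 20 genes, and -0.2 with the GC offset. With all 6 libraries the count of members called lower was 1 in edgeR, 3 with DESeq2 (Psmb3, Psmb4 and Psmb5), 5 with the GC offset, 2 without a filter (Psmb5 and Psmb9), and 0 with limma-voom and with library sizes without the top 20 genes. It was 1 to 4 with a library left out, 4 without VHL-KO replicate 1 and 3 without VHL-KO replicate 2. The members tested were 44, but 47 without a filter and 45 without VHL-KO replicate 1. Of 14611 genes, 684 were called lower in edgeR, 1133 with DESeq2, 486 with limma-voom and 655 with the top 20 genes left out. The GC offset gave 1105 of 13090 genes and the fit without a filter 936 of 25375. Without VHL-KO replicate 1 it was 982 of 15139 genes, and without VHL-KO replicate 2 it was 1078 of 15164. Members called higher stayed at 0 in every fit. DESeq2 without replicate 4 called 1 member lower at an adjusted p under 0.05, and the fits without a library called 0. Of the genes on the regulator, ubiquitin and antigen presentation lists, 1 was called in edgeR, 3 with DESeq2, 2 with the GC offset, 0 with limma-voom, and 0 to 3 with a library left out. Without replicate 4, it was 3 with DESeq2, RLE or the top 20 genes left out, 2 with limma-voom and 4 with the GC offset. The further subunit list had 0 calls in edgeR, 1 with DESeq2, 1 with the GC offset with and without replicate 4, and 0 to 1 with a library left out.

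Both labels hold a replicate 2 and a replicate 4, but libraries with the same number did not deviate together (r = 0.16 and -0.32 over 14611 genes), and no source says that they are paired. In the fit with the replicate block, 0 members and 0 list genes were called and the members' median was -0.679.

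Directions turned with VHL-KO replicate 4. In the fits without it, in the order edgeR, DESeq2, RLE, limma-voom, top 20 genes left out and GC offset, the log2 fold change of Psma1 was -0.318, -0.324, -0.323, -0.318, -0.328 and -0.284. In the same order it was -0.398, -0.403, -0.403, -0.402, -0.408 and -0.375 for Psma3, -0.412, -0.417, -0.417, -0.411, -0.422 and -0.373 for Psma4, and 0.593, 0.589, 0.587, 0.632, 0.583 and 0.508 for Psmb10. It was -0.278, -0.283, -0.283, -0.277, -0.288 and -0.265 for Psmc6, -0.233, -0.239, -0.239, -0.235, -0.244 and -0.203 for Psmd14, 0.328, 0.324, 0.323, 0.325, 0.318 and 0.286 for Psme1, and 1.06, 1.06, 1.05, 1.00, 1.05 and 0.972 for H2-K1. For Psmb6 the first 5 were 0.0723, 0.0791, 0.0673, 0.0585 and 0.0603. With the GC offset on all 6 libraries, Psma1, Psma3, Psma4, Psmb10, Psmc6, Psmd14, Psmg2 and H2-K1 turned to -0.402, -0.45, -0.267, 0.00264, -0.106, -0.171, -0.346 and 0.254. Limma-voom turned Psmd12, Psme4 and H2-K1 to 0.0073, 0.262 and 0.094, the replicate block turned Psmd12 and Psme4 to 0.275 and 0.762, and DESeq2 and RLE turned Psma3 and Psma4 to about -0.007 and -0.03 (-0.00725 and -0.0292, and -0.00729 and -0.0292). With a library left out, Psma1 ran from -0.318 to 0.314, Psmb10 from -1.15 to 0.593, Psmb6 from -1.91 to 0.0723, Psmc6 from -0.278 to 0.631, Psmd14 from -0.233 to 0.576, Psme1 from -0.879 to 0.328, H2-K1 from -0.963 to 1.06, Psma3 ran from -0.398 to 0.331, Psma4 from -0.412 to 0.326, Psmd12 from -0.395 to 0.138 and Psme4 from -0.633 to 0.207. The causes were not tested. Psmb9 passed the filter on low counts in 4 fits that left out 1 library, and only through its VHL-KO counts. With 0 counts in the other group its direction there was fixed in advance, so these fits add no support. Its unadjusted p by edgeR ran from 0.00104 to 0.00551 and its adjusted p from 0.576 to 0.982.

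Changes under 1.5-fold were not called by construction, and with 2 or 3 libraries per group the median SE of a member was 0.513, or 0.141 without replicate 4.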
